A study of Mus musculus with 15 samples.

Results

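The imprinted growth network is a set of genes that are each expressed mainly from 1 parental copy and that act on growth before and after birth. Its 8 genes considered here were Dlk1, Peg3, Cdkn1c, Mest, Plagl1, Grb10, Ndn and Sgce, found by symbol among the 33340 rows of the count table. All 8 were found, and 7 of them passed the filter on low counts that left 17457 genes for testing; Dlk1 did not pass. RNA-seq was performed on poly(A) RNA from whole lungs of C57BL/6 mice, with 4 libraries for each of days 0, 7 and 14 and 3 libraries for day 21. Mice received 50 µL of bleomycin, which breaks DNA and leads to lung fibrosis, by the intratracheal route at 5 U/kg under Avertin anesthesia, and the animals of this model were males of at least 10 weeks of age. The day 0 libraries are titled as controls, but the treatment label of day 0 replicate 4 names bleomycin, so its title and time point decided its group. For days 0, 7 and 14 the series description gives fewer replicates than the titles, which were followed. No label says that the libraries of a day came from separate mice, so p-values measure the spread between these libraries.

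Genomic imprinting marks 1 parental allele in the germ line by DNA methylation, and the mark keeps that allele silent or active in the offspring. Many imprinted genes are strongly expressed in the embryo and placenta and fall to low levels after weaning. Those expressed from the father's allele tend to promote growth and those expressed from the mother's allele tend to restrain it. Dlk1, Peg3, Mest, Plagl1, Ndn and Sgce are paternally expressed, whereas Cdkn1c and, outside the nervous system, Grb10 are maternally expressed. Read counts per gene do not tell the parental alleles apart, so only total RNA is described.

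Imprinted promoters are often rich in CpG, the dinucleotide that carries DNA methylation, and the promoters of 4 genes that changed are shown for that reason. RefSeq windows on GRCm38.p6, from 250 bases before to 50 bases after a transcript start, matched 6 of the 8 genes (all but Cdkn1c and Sgce). The sequences are written 5′ to 3′ on the strand of the gene, with each CpG in capitals.
Peg3, chr7:6730370-6730669, minus strand: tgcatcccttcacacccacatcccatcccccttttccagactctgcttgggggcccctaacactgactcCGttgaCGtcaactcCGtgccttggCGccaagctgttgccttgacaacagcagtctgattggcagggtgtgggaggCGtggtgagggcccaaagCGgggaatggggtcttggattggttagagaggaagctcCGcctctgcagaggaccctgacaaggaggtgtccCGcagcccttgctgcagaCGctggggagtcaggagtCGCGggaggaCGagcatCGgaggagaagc
Mest, chr6:30737800-30738099, plus strand: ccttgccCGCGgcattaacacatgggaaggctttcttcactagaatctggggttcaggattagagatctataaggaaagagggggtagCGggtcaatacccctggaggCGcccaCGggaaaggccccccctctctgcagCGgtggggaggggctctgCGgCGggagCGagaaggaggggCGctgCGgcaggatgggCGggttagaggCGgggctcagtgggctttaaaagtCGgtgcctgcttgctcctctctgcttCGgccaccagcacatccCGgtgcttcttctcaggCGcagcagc
Grb10, chr11:12037371-12037670, minus strand: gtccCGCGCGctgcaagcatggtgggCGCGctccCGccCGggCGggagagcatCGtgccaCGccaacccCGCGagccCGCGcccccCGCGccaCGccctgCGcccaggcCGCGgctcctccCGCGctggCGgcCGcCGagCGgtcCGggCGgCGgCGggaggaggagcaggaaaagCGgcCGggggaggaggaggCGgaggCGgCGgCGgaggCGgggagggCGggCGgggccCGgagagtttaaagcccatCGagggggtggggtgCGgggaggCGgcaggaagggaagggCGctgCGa
Plagl1, chr10:13090582-13090881, plus strand: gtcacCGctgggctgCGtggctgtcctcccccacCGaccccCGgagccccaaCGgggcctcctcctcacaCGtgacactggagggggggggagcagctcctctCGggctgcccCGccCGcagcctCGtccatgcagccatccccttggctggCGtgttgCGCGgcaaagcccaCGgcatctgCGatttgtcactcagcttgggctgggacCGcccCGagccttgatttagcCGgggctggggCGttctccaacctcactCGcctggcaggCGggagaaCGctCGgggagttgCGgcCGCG
The Grb10 window held 45 CpG, the Plagl1 window 26, the Mest window 17 and the Peg3 window 13, against a median of 7 over 32851 RefSeq windows of 300 bases. Of these, 98.1% held fewer CpG than the Grb10 window, 83.1% fewer than Plagl1, 68.6% fewer than Mest and 62.1% fewer than Peg3. A second Grb10 window and the window upstream of Mest held 9 and 8 CpG, the Dlk1 window 9 and the Ndn window 11. Methylation was not measured in these libraries.

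The Peg3 promoter is shared with Usp29, a neighbouring imprinted gene read in the opposite direction, and the starts of the pair lie 164 bases apart. Their windows overlap by 263 bases. In the overlap, 201 bases before the Peg3 start, stands GGGGCCCC, the letters bound by the zinc finger protein that Plagl1 encodes, shown in capitals in the stretch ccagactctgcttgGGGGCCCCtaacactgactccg. These letters, which read the same on both strands, occurred in 1.08% of all windows and in none of the windows of the other 5 matched genes. Besides Usp29, the windows of 2 other imprinted genes, Ppp1r9a and Rasgrf1, also held them. The 2 other motifs searched on both strands, AANATGGC (in 6.05% of all windows) and TATAAA (in 13.6%), were in no window of a network gene. A match of letters is a description of the sequence, not a measured binding site.

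Total counts ranged from 15652008 to 18020661 per library. The 16 mitochondrial genes took a share of the counts that differed between libraries of the same day, from 2.28% to 4.22% at day 0 and from 2.1% to 4.14% at day 14, and stayed between 2.03% and 2.15% at day 7. Markers of lung cell types were present, and their summed levels in CPM (counts scaled to a fixed library size) moved with time. The fibroblast sum (6 genes, none at 0 in any library) was 1310 to 1990 CPM at day 0, 4820 to 6080 at day 7, 3590 to 13100 at day 14 and 4820 to 9450 at day 21. The alveolar epithelial sum (6 genes) was 26800 to 37000 CPM at day 0 and 5260 to 11300 at day 21, when 4 of the 6 were lower. The smooth muscle and pericyte sum (6 genes) was 286 to 333 CPM at day 0 and 415 to 650 at day 21, when 2 of the 6 were higher. The mesothelial sum (4 genes) was 168 to 302 CPM at day 0 and 383 to 909 at day 14, when 1 of the 4 was higher. Of 6 leukocyte markers, 3 were higher and 1 lower at day 14, and 2 of 6 endothelial markers were lower. The adipocyte sum (5 genes) was 1.55 to 51.6 CPM at day 0, with Lep at 0 in some libraries, and 0.4 to 0.65 at day 14, when each of the 5 was at 0 in some library, with 4 of the 4 tested lower. The part of these cell types in the changes of the network genes was not tested. In whole lung, fewer cells of a type and less RNA per cell cannot be told apart.

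After bleomycin the network genes went in different directions. The only libraries titled as controls were those of day 0, so drug, procedure and elapsed time cannot be told apart. Changed here means that edgeR's quasi-likelihood test gave a Benjamini-Hochberg adjusted p below 0.05 with a difference of more than 1.5-fold. Of the 7 tested genes 1 was changed at day 7, Mest, which was higher; 16.1% of all tested genes were changed in that comparison. At day 14, 4 of 7 were changed, with Mest, Peg3 and Grb10 higher and Cdkn1c lower, against 23.1% of all genes. At day 21, 4 of 7 were changed, with Mest, Peg3 and Grb10 higher and Plagl1 lower, against 22.5% of all genes. The median log2 fold change of the 7 genes was -0.22, 0.18 and -0.06 at days 7, 14 and 21, near the medians of 0.01, 0.02 and 0.02 over all genes. The 3 comparisons share the day 0 libraries.

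**Figure D1:**
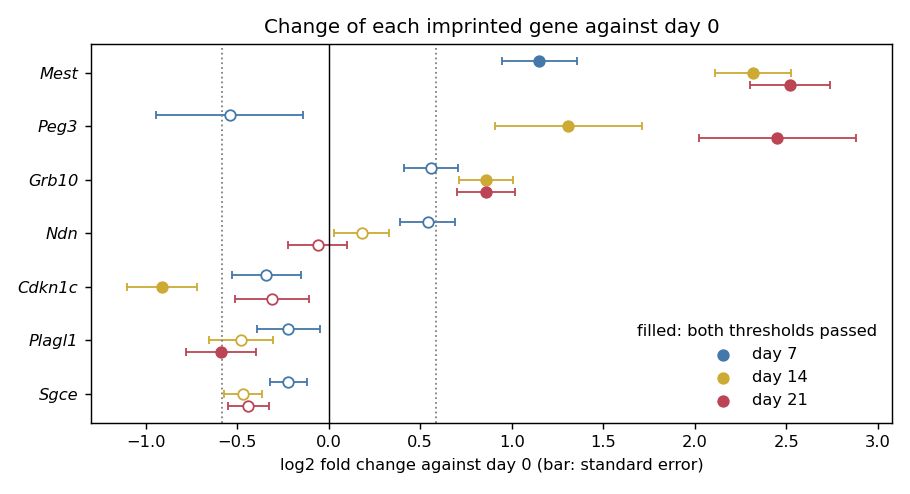
Log2 fold change against day 0 (x axis) of the 7 tested network genes (y axis) at days 7, 14 and 21, with bars for the standard error and dotted lines at a 1.5-fold change. Filled points passed both thresholds: Mest on all 3 days, Peg3 and Grb10 at days 14 and 21, Cdkn1c at day 14 and Plagl1 at day 21.

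Mest, which encodes an enzyme of the alpha/beta hydrolase fold expressed in embryonic mesoderm and linked to fat cell growth, lies at chr6:30723547-30748465. Its level was 7.77, 6.23, 8.57 and 8.48 CPM in the 4 day 0 libraries. It was 19.8, 14.9, 17.9 and 16.2 CPM at day 7, 32.1, 48.5, 42.5 and 32.3 CPM at day 14, and 30.5, 41.7 and 61.5 CPM at day 21. Every library after bleomycin lay above every day 0 library, and every day 14 library lay above every day 7 library. Against day 0 the log2 fold change was 1.15 (SE 0.204, adjusted p = 0.00125) at day 7, 2.32 (SE 0.207, adjusted p = 2.45e-06) at day 14 and 2.52 (SE 0.217, adjusted p = 3.13e-06) at day 21. These are rises of 2.21-fold, 5-fold and 5.74-fold. From day 7 to day 14 Mest rose a further 2.26-fold (log2 1.17, SE 0.197, adjusted p = 0.00564). Adjusted for the mitochondrial share, that step was 1.09 on the log2 scale with an adjusted p of 0.0557, the highest of its 18 alternatives, whose adjusted p started at 3.74e-06. Between days 14 and 21 the groups overlapped (log2 0.2, SE 0.207, adjusted p = 0.783).

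Exons of Mest overlap exons of Copg2, a coat protein gene on the opposite strand, by 912 bases. The library kit does not mark strand, so reads in that stretch cannot be told apart. Copg2 lay between 35.8 and 57.9 CPM in all 15 libraries and was not changed on any day.

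Peg3, a zinc finger protein of mesoderm, muscle and brain that represses other genes, lies at chr7:6703892-6730431. It was 18.1, 24.5, 31.6 and 34.9 CPM at day 0 and 14.6, 21.2, 17.7 and 21.4 CPM at day 7, where the groups overlapped. It was 95.2, 89, 49.7 and 36.5 CPM at day 14 and 263, 134 and 50.1 CPM at day 21. Each library of days 14 and 21 lay above each day 0 library, but the lowest day 14 library was close to the highest of day 0, and the 3 day 21 libraries spanned from 50.1 to 263 CPM. Its log2 fold change was -0.54 (SE 0.402, adjusted p = 0.342) at day 7, 1.31 (SE 0.4, adjusted p = 0.0201) at day 14 and 2.45 (SE 0.429, adjusted p = 0.000638) at day 21. From day 7 to day 14 it was 1.85 (SE 0.408, adjusted p = 0.0182).

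The day 14 call of Peg3 lay close to the threshold. With any 1 of the 8 libraries left out the log2 fold change stayed between 1.07 and 1.51, but the call was lost without any of 4. Leaving out day 0 replicate 1 gave an adjusted p of 0.0664, and leaving out replicate 2 of that day gave 0.0554. For day 14, the values were 0.0693 without replicate 1 and 0.0668 without replicate 2. Among libraries with a mitochondrial share over 3.5% (2 at day 0 and 3 at day 14) the log2 fold change was 0.81 (adjusted p = 0.142). Over its 19 alternatives the adjusted p ranged from 0.00325 to 0.142. The step from day 7 to day 14 had an adjusted p of 0.0515 and 0.05 when replicate 1 or 3 of day 7 was left out, which ended the call, and 0.0568 when replicate 2 of day 14 was left out. Adjusted for the mitochondrial share it was 0.0993 (log2 fold change 1.64), the highest of 18 alternatives that started at 0.000727. The day 21 rise was called in each of its 17 alternatives, with a log2 fold change of 1.72 without day 21 replicate 1 at the low end.

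At days 7, 14 and 21 the library with the most heart muscle RNA also had the highest Peg3 of its day. The summed level of 7 heart muscle markers was 759 CPM in day 21 replicate 1, where Peg3 was 263 CPM. It was 653 CPM in day 7 replicate 4, where Peg3 was 21.4 CPM. In day 14 replicate 1 it was 40.9 CPM with Peg3 at 95.2 CPM, and in day 21 replicate 2 17.4 CPM with Peg3 at 134 CPM. Day 0 sums of 23.2, 42.6, 273 and 189 CPM stood beside Peg3 at 18.1, 24.5, 31.6 and 34.9 CPM. Of these markers, Nppa was at 0 in some libraries of days 0, 7 and 14 and Myh6 in some of day 14, and none was at 0 at day 21. The part of heart muscle RNA in the Peg3 values was not tested. The fibroblast sum was highest in day 14 replicate 1 (13100 CPM) and day 21 replicate 1 (9450 CPM), the libraries in which Peg3 was highest on their day, but day 21 replicate 3 had a fibroblast sum of 8310 CPM with Peg3 at 50.1 CPM and replicate 2 had 4820 CPM with Peg3 at 134 CPM. At day 14, replicate 2 had a sum of 4570 CPM with Peg3 at 89 CPM, against 4970 CPM and 49.7 CPM in replicate 3. At day 7 the fibroblast sum was already 4820 to 6080 CPM, with 4 of 6 markers higher than at day 0, while Peg3 was not changed. The sum was mostly collagen RNA: of the 13100 CPM in day 14 replicate 1, Col1a1 gave 5080, Col1a2 4340 and Col3a1 3090 CPM. Pdgfra and Dcn, the 2 markers that were not higher, had log2 fold changes of -0.23 and -0.42 at day 14 (adjusted p = 0.458 and 0.0974), and Dcn was lower at day 14 than at day 7 (log2 -0.8, adjusted p = 0.0233). The part of fibroblast RNA in the Peg3 values was not tested.

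**Figure D2:**
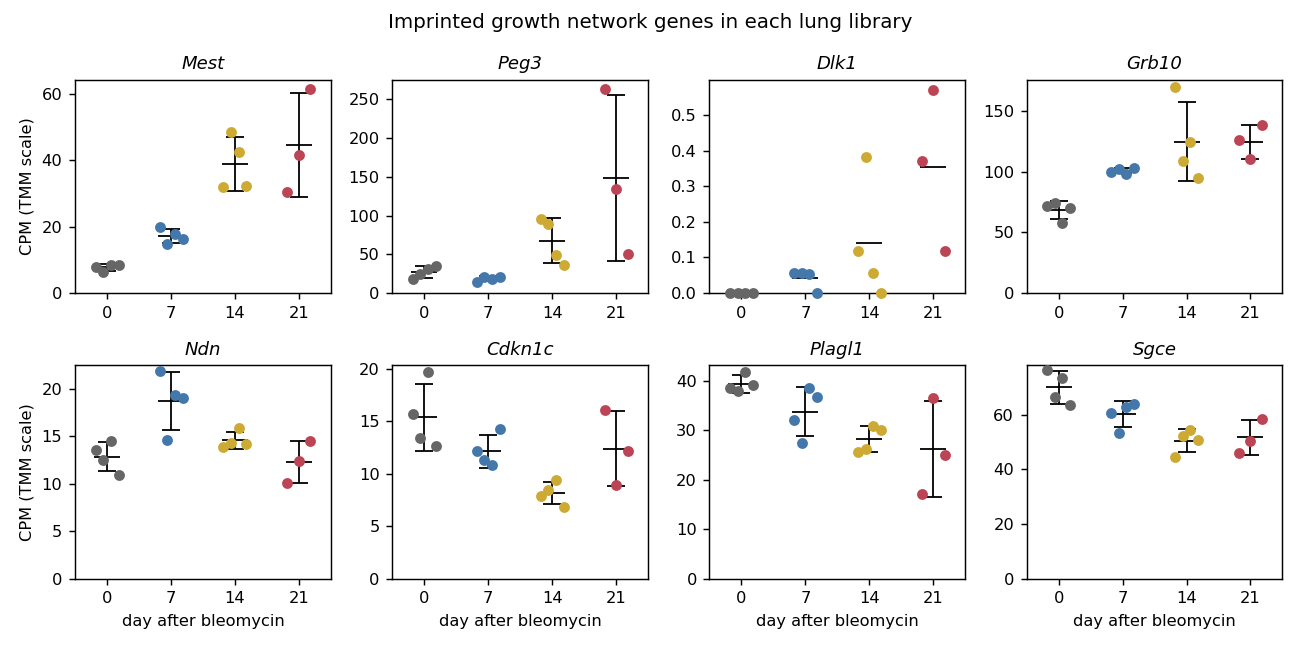
Level of each network gene in CPM scaled by TMM (y axis, from 0) in every library at days 0, 7, 14 and 21 (x axis), with 1 point per library. The long bar is the mean and the whiskers are 1 SD (Dlk1 shows the mean only). Mest, Peg3 and Grb10 lie higher at days 14 and 21 than at day 0, Ndn is highest at day 7, and Cdkn1c is lowest at day 14.

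Dlk1, a membrane ligand that resembles Notch ligands and holds back fat cell formation, lies at chr12:109452823-109463336. It had 0 counts in all 4 day 0 libraries, 1, 1, 1 and 0 counts at day 7, 2, 6, 1 and 0 counts at day 14, and 6, 10 and 2 counts at day 21. The day 21 libraries did not overlap those of day 0, whereas 1 library each at days 7 and 14 also had 0 counts. A summed count of 0 at day 0 allows a level of up to 0.0458 CPM, at 3 counts over the group. The pooled level was 0.134 CPM at day 14 (9 counts in all) with an exact Poisson 95% interval of 0.0613 to 0.255 CPM, and 0.356 CPM at day 21 (18 counts) with an interval of 0.211 to 0.563 CPM, both covering counting error only. The lower end of each interval, set against the floor, put Dlk1 at least 1.34-fold higher at day 14 and at least 4.61-fold higher at day 21. Day 7, with 3 counts in all, was at the floor, and no fold is given. Without day 14 replicate 2, day 14 held 3 counts and gave no bound, and leaving out each day 21 library in turn gave bounds of 2.29 to 5.94-fold. With no low count filter, the adjusted p was 0.313, 0.0502 and 0.00732 at days 7, 14 and 21.

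Plagl1, a zinc finger transcription factor that restrains the cell cycle and regulates other imprinted genes in the embryo, lies at chr10:13060504-13131694. It was 38.6, 37.9, 41.9 and 39.1 CPM at day 0, with a small spread, and 32.2, 27.5, 38.6 and 36.7 CPM at day 7. It was 25.6, 26.3, 31 and 30.1 CPM at day 14 and 17.1, 36.5 and 25.1 CPM at day 21. The libraries of days 14 and 21 all lay below those of day 0. Relative to day 0 the log2 fold change was -0.22 (SE 0.173, adjusted p = 0.367) at day 7, -0.48 (SE 0.174, adjusted p = 0.0455) at day 14, where it passed the p threshold but not the fold threshold, and -0.59 (SE 0.19, adjusted p = 0.0294) at day 21. The day 21 call was close to both thresholds. The call was lost without day 21 replicate 1 (log2 -0.39, adjusted p = 0.0944), without replicate 3 of that day (0.0664), without day 0 replicate 3 (0.0516), in a fit to days 0 and 21 alone (0.0639) and with replicate number as a block (log2 -0.58, adjusted p = 0.0381, under the fold threshold). Over 17 alternatives the adjusted p ranged from 0.000994 to 0.0944.

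Ndn, a growth suppressor of the MAGE family known from neurons, lies at chr7:62346569-62350262 and has a single transcript. Ndn was 13.6, 12.5, 14.5 and 10.9 CPM at day 0 and 21.9, 14.6, 19.4 and 19 CPM at day 7, with the lowest day 7 library just above the highest day 0 library. It was 13.9, 14.3, 15.9 and 14.2 CPM at day 14 and 10.1, 12.4 and 14.5 CPM at day 21, both overlapping day 0. Ndn differed from day 0 by a log2 fold change of 0.54 (SE 0.148, adjusted p = 0.016) at day 7, under the fold threshold, and 0.18 (SE 0.149, adjusted p = 0.38) and -0.06 (SE 0.161, adjusted p = 0.798) at days 14 and 21. Over 19 alternatives the adjusted p at day 7 ranged from 0.00655 to 0.0906, the highest after adjusting for the mitochondrial share, and without day 7 replicate 2 the log2 fold change of 0.64 passed both thresholds.

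Sgce, the epsilon subunit of the sarcoglycan complex that links the cell skeleton to the matrix, lies at chr6:4674350-4747207. Sgce was 76.4, 66.5, 73.5 and 63.5 CPM at day 0, 60.6, 53.3, 62.8 and 63.9 CPM at day 7, 44.6, 52.2, 54.5 and 50.6 CPM at day 14, and 46.1, 50.4 and 58.5 CPM at day 21. All libraries of days 14 and 21 lay below those of day 0. For Sgce the log2 fold change was -0.22 (SE 0.102, adjusted p = 0.13), -0.47 (SE 0.103, adjusted p = 0.00263) and -0.44 (SE 0.112, adjusted p = 0.00809) at days 7, 14 and 21. The last 2 passed the p threshold, and none passed the fold threshold.

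Cdkn1c encodes p57, a maternally expressed member of the Cip/Kip inhibitors of cyclin-dependent kinases, and lies at chr7:143458339-143461050. Its 4 day 0 libraries had 15.7, 13.4, 19.7 and 12.7 CPM and its day 7 libraries 12.2, 11.3, 10.8 and 14.3 CPM. The level was 7.92, 8.48, 9.38 and 6.88 CPM at day 14 and 16.1, 8.95 and 12.2 CPM at day 21. Day 14 lay wholly below day 0 and below day 7, while day 21 overlapped day 0. The step from day 7 to day 14 did not pass the test (log2 -0.57, SE 0.191, adjusted p = 0.0796). Against day 0, Cdkn1c fell by 0.91 on the log2 scale at day 14 (SE 0.191, adjusted p = 0.00202), a call kept in all 19 alternatives. The log2 fold change was -0.34 (SE 0.188, adjusted p = 0.197) at day 7 and -0.31 (SE 0.204, adjusted p = 0.273) at day 21. The summed level of 6 cell cycle genes was 29.1 to 53.3 CPM at day 0, 162 to 229 CPM at day 7, 223 to 302 CPM at day 14 and 70.9 to 193 CPM at day 21, with 6 of 6 higher on each day and none at 0, and whether it bears on Cdkn1c was not tested. The Cdkn1c exons share 625 bases with an annotated antisense gene, Gm44732, and the kit does not mark strand.

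Among relatives of Cdkn1c that are not imprinted, Cdkn1a, which encodes p21 and is induced by p53 after DNA damage, was higher on all 3 days and Cdkn1b, which encodes p27, was lower on all 3. Cdkn1a was 71.7 to 153 CPM at day 0, 292 to 517 CPM at day 7, 289 to 371 CPM at day 14 and 277 to 350 CPM at day 21, without overlap with day 0. It rose 3.59-fold, 2.87-fold and 2.63-fold (adjusted p = 4.82e-05, 6.71e-05 and 0.000261). Cdkn1b was 133 to 171 CPM at day 0, 79.3 to 99 CPM at day 7, 78.1 to 120 CPM at day 14 and 85.6 to 96.4 CPM at day 21. Its log2 fold change was -0.79, -0.7 and -0.82 (adjusted p = 0.000656, 0.000766 and 0.000529), and the day 14 call was lost within libraries of higher mitochondrial share. At day 7 Cdkn1c did not pass the test, and the difference between the pair was not tested.

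Grb10, an adaptor that binds the insulin and IGF1 receptors and dampens their signal, lies at chr11:11930508-12038683. Grb10 was 71.6, 74.3, 57.6 and 70.2 CPM at day 0 and 100, 102, 98 and 103 CPM at day 7, the smallest SD relative to the mean of any tested network gene and day. It was 170, 109, 124 and 95 CPM at day 14 and 126, 110 and 138 CPM at day 21. No library after bleomycin overlapped day 0. Its change on the log2 scale was 0.56 (SE 0.148, adjusted p = 0.0134) at day 7, just under the fold threshold, and 0.86 at days 14 (SE 0.148, adjusted p = 0.000469) and 21 (SE 0.158, adjusted p = 0.000879). The calls at days 14 and 21 were kept in all 19 and 17 alternatives, while at day 7 the adjusted p ranged from 0.00199 to 0.158, the latter after adjusting for the mitochondrial share. Days 14 and 21 had the same mean, 125 CPM.

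The Grb7 and Grb14 adaptors of the same family, which are not imprinted, were lower where Grb10 was higher at days 14 and 21. Grb7 was 38.4 to 52.4 CPM at day 0, 20.1 to 32.5 CPM at day 7, 11.6 to 22 CPM at day 14 and 7.59 to 11.3 CPM at day 21. Its log2 fold change was -0.74, -1.37 and -2.22 (adjusted p = 0.0113, 9.08e-05 and 8.25e-06), and the day 7 call was lost after adjusting for the mitochondrial share. Grb14 was 57.7 to 64.6 CPM at day 0, 46.4 to 69.7 CPM at day 7, 22.6 to 41.1 CPM at day 14 and 24.6 to 28.9 CPM at day 21, with log2 fold changes of -0.96 (adjusted p = 0.000786) and -1.19 (adjusted p = 0.000393) at days 14 and 21. Of the 11 non-imprinted relatives fixed for the network, 9 were tested. At days 7, 14 and 21, 1, 1 and 1 were higher and 2, 4 and 3 lower, against 8.78%, 12.0% and 12.4% higher and 7.36%, 11.2% and 10.1% lower of all genes.

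**Figure D3:**
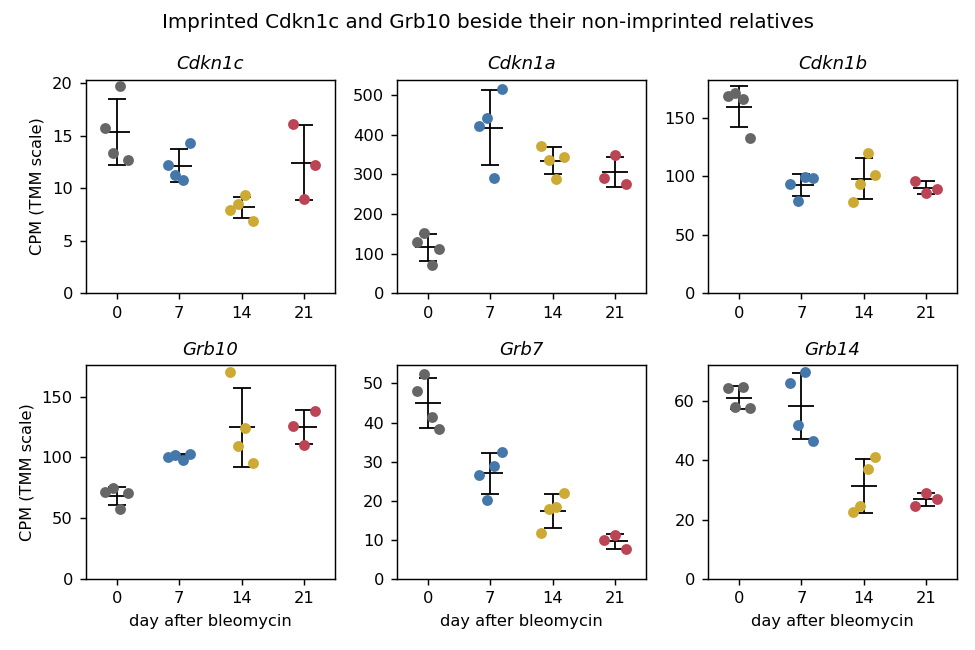
Level in CPM scaled by TMM (y axis, from 0) of imprinted Cdkn1c and Grb10 and of 2 non-imprinted relatives of each, in every library by day (x axis), with the mean and 1 SD. Cdkn1a and Grb10 lie above day 0 after bleomycin, and Cdkn1b and Grb7 lie below it.

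Compared per length of exon, the order of the network genes changed with time. At day 0 Cdkn1c (7.55 CPM per kb, SD 1.56, n = 4) and Grb10 (7.53, SD 0.814) stood first and did not differ beyond their spread. Sgce (6.59, SD 0.565) followed and overlapped the ranges of both. Plagl1 (5.04, SD 0.224) and Ndn (3.49, SD 0.42) came next, each clear of its neighbours, and then Peg3 (2.05, SD 0.562) and Mest (1.97, SD 0.275), which overlapped. Dlk1 was at 0. At day 21 Grb10 (13.7 CPM per kb, SD 1.52, n = 3), Mest (11.3, SD 3.98) and Peg3 (11.2, SD 8.06) had the highest means, with overlapping ranges, and Dlk1 reached 0.0624 CPM per kb. The ranges of Mest (from 7.73) and Peg3 (3.76 to 19.8) also overlapped that of Cdkn1c (4.39 to 7.89), and that of Peg3 those of Sgce, Plagl1 and Ndn. With the longest transcript in place of all exons, Sgce stood first at day 0, before Grb10 and Cdkn1c. Plagl1 (7.21 to 7.97) then overlapped Cdkn1c (6.66 to 10.4), and Ndn (2.96 to 3.94) overlapped Peg3 (2.08 to 4.01) and Mest (2.34 to 3.22).

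**Figure D4:**
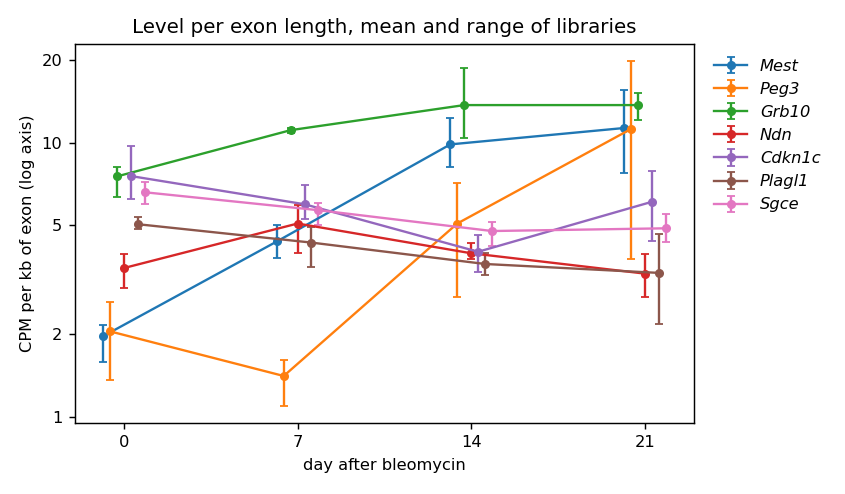
CPM per kb of exon (log y axis) of the 7 tested network genes at days 0, 7, 14 and 21 (x axis), with points for the mean and bars from the lowest to the highest library. Mest rises from 1.97 to 11.3 and Peg3 from 2.05 to 11.2 between days 0 and 21, where the Peg3 libraries span 3.76 to 19.8.

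Most network genes sit in imprinted regions with several genes. Next to Peg3, Usp29 had 0 counts in all day 0 libraries, 1 count over day 7, 9 counts over day 14 and 11 over day 21. By the same reckoning it was at least 1.34-fold higher at day 14 and at least 2.37-fold higher at day 21. No bound was left without day 14 replicate 2, which held 7 of the 9 counts, or without day 21 replicate 1, which held 7 of the 11. Zim1, a zinc finger gene 7.4 kb away, rose at day 21 (log2 1.76, SE 0.604, adjusted p = 0.038) from 0.271 to 0.939 CPM, a call that held in 8 of 16 alternatives and in none that left out a day 21 library. Near Dlk1, 2 noncoding RNAs of the maternal allele were higher. Meg3, 77.7 kb away, was 6.02 to 11.6 CPM at day 0 and 15.1 to 22.1 CPM at day 21 (log2 1.18, SE 0.329, adjusted p = 0.0136), a call lost without day 21 replicate 1, and was also higher at day 14 than at day 7 (log2 1.44, adjusted p = 0.0186). Rian, 140.6 kb away, was higher at day 14 (log2 0.72, adjusted p = 0.0206) and day 21 (log2 0.96, adjusted p = 0.0063), and the day 14 call was lost without day 0 replicate 1 or 2 or day 14 replicate 2 or 3.

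In the region of Cdkn1c, H19 and Igf2 lie 880.2 and 791.5 kb away. H19, a maternally expressed noncoding RNA, was 0.254 to 0.484 CPM at day 0 and 0.502 to 1.65 CPM over the 11 later libraries. It rose 3.01-fold, 3.31-fold and 3-fold (adjusted p = 0.0146, 0.00614 and 0.0159), with the call lost at day 7 without replicate 1 and at day 21 without replicate 3. Igf2, the paternally expressed insulin-like growth factor, passed the test as lower at day 14 (log2 -0.75, SE 0.241, adjusted p = 0.0259), with overlapping groups, and the call was lost without any of 4 libraries (day 0 replicates 1 and 2, day 14 replicates 2 and 3). Igf2r, on chromosome 17, encodes the receptor that clears IGF2 and was higher on all 3 days, by 1.74-fold, 1.74-fold and 1.71-fold (adjusted p = 0.00263, 0.00137 and 0.00316). Near Sgce, Asb4, which encodes a subunit of a ubiquitin ligase, had only 4 to 14 counts per library at day 0 (0.254 to 0.847 CPM). From that low level it was higher on all 3 days (log2 1.56, 1.48 and 1.64 with adjusted p = 0.0144, 0.0137 and 0.0112), with overlapping groups at day 7. Ppp1r9a, an actin-binding protein, was lower on all 3 (log2 -0.86, -0.92 and -1.17; adjusted p = 0.0228, 0.0112 and 0.00542). Its call at day 7 was lost without day 0 replicate 3 or 4 or day 7 replicate 1 or 2. The other tested neighbours (Slc22a18, Phlda2, Kcnq1ot1, Peg10, Peg12 and Snrpn) were not changed against day 0, while Kcnq1ot1, 161.8 kb from Cdkn1c, was higher at day 14 than at day 7 (log2 1.04, SE 0.256, adjusted p = 0.0266). Next to Ndn, Magel2 had counts in 1 library only and was not tested.

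**Figure D5:**
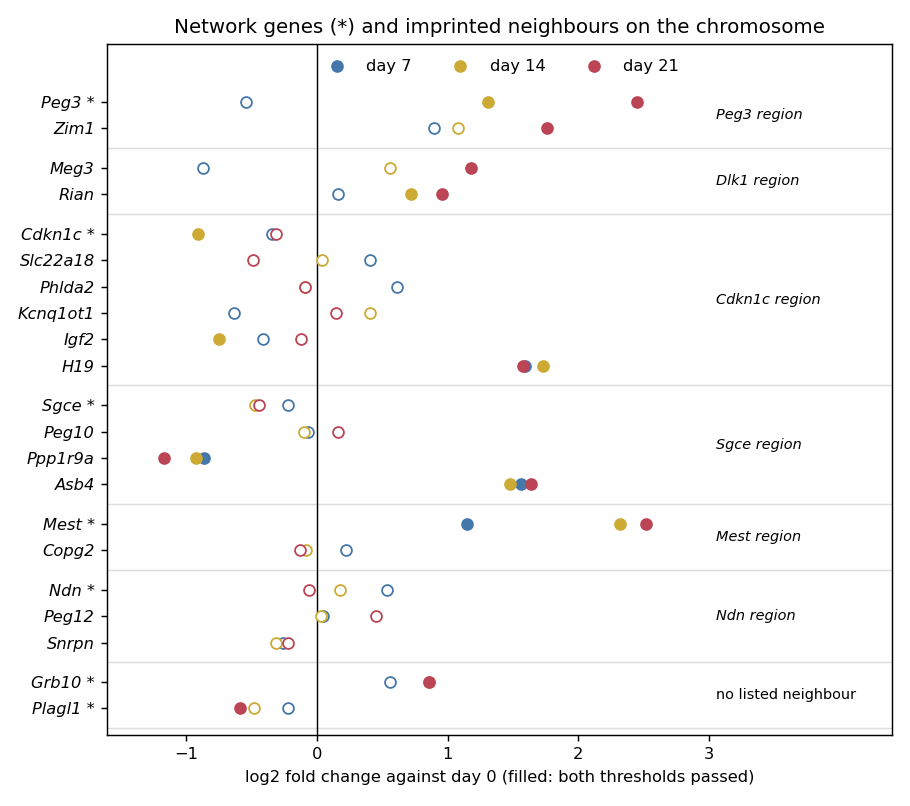
Log2 fold change against day 0 (x axis) of network genes (marked *) and of the tested imprinted genes near them (y axis), by region, at days 7, 14 and 21. Filled points passed both thresholds. Within the Cdkn1c and Sgce regions H19 and Asb4 lie to the right of 0 and Cdkn1c and Ppp1r9a to the left.

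Of 29 further imprinted genes, 25 were tested. At day 7, 3 were higher and 6 lower, at day 14, 5 and 6, and at day 21, 6 and 5, against 8.78% and 7.36%, 12.0% and 11.2%, and 12.4% and 10.1% of all genes. After adjusting for the mitochondrial share 1 of the 9 at day 7 was left, Zrsr1, while the count over all genes went from 2818 to 1269. None of the 9 turned direction in any alternative run. The day 7 log2 fold changes reached as near to 0 as 0.54 for Igf2r, -0.58 for Ppp1r9a and -0.51 for Gnas. Leaving out day 7 replicate 1 or 2 left 5 called genes, and 2053 or 2175 over all genes. Within libraries of higher share, 7 of the 11 at day 14 were left, without H19, Asb4, Igf2 and Rian. The count over all genes there went from 4040 to 2990. Over all alternatives at day 14 the log2 fold change was 1.53 to 1.95 for H19, 1.24 to 1.77 for Asb4, -0.91 to -0.61 for Igf2 and 0.64 to 0.81 for Rian. Zrsr1, a splicing factor gene, was 27.7 to 37.4 CPM at day 0 and 14.5 to 17.2, 9.69 to 14.6 and 11.6 to 13.1 CPM at days 7, 14 and 21 (log2 -0.96, -1.29 and -1.31; adjusted p = 0.000263, 8.85e-06 and 2.45e-05). Slc38a4, an amino acid transporter, fell by 0.77, 1.34 and 2.01 on the log2 scale (adjusted p = 0.0352, 0.001 and 0.000137), and the day 7 call was lost without 7 of the 8 libraries in turn. The noncoding RNA Peg13 fell by 0.64, 1.04 and 0.94 (adjusted p = 0.0029, 3.39e-05 and 0.000206), and its day 7 call was lost without day 7 replicate 2. Nap1l5, of the nucleosome assembly protein family, fell by 2.31, 2.59 and 1.66 (adjusted p = 0.00417, 0.00136 and 0.0264) from a mean of 2.01 CPM. Its day 7 call was lost in both settings that used the mitochondrial share, with a log2 fold change of -2.64 to -1.41 over 18 alternatives, and its day 21 call was lost without day 0 replicate 4 or any day 21 library. Nnat, a membrane proteolipid of the endoplasmic reticulum, was higher at day 14 (log2 1.45, adjusted p = 0.0109), with overlapping groups, and Gnas, the stimulatory G protein alpha subunit, was lower at day 7 (log2 -0.59, adjusted p = 0.023), a call lost without any of 4 libraries (day 0 replicates 2 and 3, day 7 replicates 1 and 2), with replicate number as a block, with limma voom and in both settings that used the mitochondrial share.

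Between the later days, 2 of the 7 network genes were changed from day 7 to day 14, Peg3 and Mest, both higher, against 6.00% of all genes (2.77% higher and 3.23% lower). From day 14 to day 21 none of the 7 was changed by edgeR, nor was any other gene (0% of all tested). At an unadjusted p under 0.05 there were 2 network genes, and 1714 of the 17457 genes tested, in that comparison, Peg3 (log2 1.14, SE 0.417, adjusted p = 0.399) and Cdkn1c (log2 0.6, SE 0.205, adjusted p = 0.381), and DESeq2 called 0 of the 7 and 106 genes in all.

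The network genes that changed were compared with 13923 protein-coding genes by the root mean square difference of log2 CPM, relative to day 0, over the 15 libraries. Nearest to Mest were Cd200r1 (0.33), Acp5 (0.36) and Zranb3 (0.38); Cd200r1, an inhibitory receptor of myeloid cells, went from 5.36 CPM at day 0 to 29.3 CPM at day 14, and Acp5, the acid phosphatase of osteoclasts and macrophages, from 14.7 to 71.9 CPM. Nearest to Peg3 were Il20rb (0.43), Pabpc1l (0.49) and Lmcd1 (0.54). Nearest to Grb10 were Lamc1 (0.12), a laminin chain that went from 253 to 428 CPM, Flna (0.13), an actin crosslinker that went from 647 to 1170 CPM, and Prag1 (0.13). Nearest to Cdkn1c were Satb1 (0.22), Tnk1 (0.23) and Slc46a3 (0.24), and among the nearest to Plagl1 were Zbtb2 (0.16) and Gab1 (0.16). Within the network the closest pair was Plagl1 and Sgce (0.22) and the most distant was Cdkn1c and Mest (2.22). These differences are descriptions over libraries that share their days and depth.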

How the data were processed

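Poly(A) RNA from whole lung was sequenced from NEBNext Ultra libraries. The authors trimmed reads with TrimGalore, aligned them to GRCm38 with HISAT2 2.1.0, left out multi-mapped reads and counted reads per Ensembl gene with HTSeq 0.6.0 (versions per the submitters' processing notes, which also name DESeq2 1.40.2). The deposited values are raw counts with no normalization; the annotation release and strand setting are not given in the sources used here. Symbols, positions and exon lengths came from GENCODE M21 on the same build, which matched 33267 of 33340 identifiers. No deposited column was left out.

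Counts were tested with edgeR 4.0.16 in R 4.3.3 (filterByExpr, TMM, glmQLFit, glmQLFTest, all 15 libraries in 1 fit, Benjamini-Hochberg over 17457 genes), and the script was tested on simulated data. CPM use TMM-adjusted totals, and log2 CPM a prior count of 2. Depth was 15652008 to 18020661 counts per library. Intervals and floors take in counting error alone, because PCR duplicates of a molecule were not told apart.

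The network genes, gene lists and marker lists were chosen with earlier results of these data known. All 8 network genes were named, as were listed genes changed against day 0, genes beside a network gene on its chromosome, and the 3 nearest genes (mean of at least 1 CPM) per changed network gene; Copg2 was named for its overlap with Mest, and Gm44732 for its overlap with Cdkn1c. Some genes that the rule would name are not reported here. Alternatives were DESeq2 1.42.0, RLE and total count scaling, 2 other filters, a fit to 2 days alone, a replicate block, limma 3.58.1 voom, no fold threshold, the mitochondrial share as a covariate and leaving out each library. Fits within libraries under 2.5% or over 3.5% mitochondrial share were added after the data were seen.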

Additional observations from a re-analysis of the deposited data

Results flagged for a closer look

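The changes of Peg3 and Mest against day 0 differed between days 7 and 14, as tested by the contrast of day 14 with day 7, and were picked out for that reason. For Peg3 the difference was 1.85 on the log2 scale (SE 0.408, edgeR adjusted p = 0.0182), with 4 of 4 day 14 libraries above all day 7 libraries. For Mest it was 1.17 (SE 0.197, edgeR adjusted p = 0.00564), again with 4 of 4 libraries above all of day 7. After adjusting for the mitochondrial share the difference was 1.64 for Peg3 (edgeR adjusted p = 0.0993) and 1.09 for Mest (adjusted p = 0.0557), neither past the threshold. In the 22 groups of 4 libraries examined, no library lay past Dixon's limit, and groups of 3 were not examined. The 22 do not take in every group of 4 that the 8 network genes form. The statement does not extend to Dlk1 at day 7, with 1, 1, 1 and 0 counts.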

How the results depend on the processing

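The number of network genes changed stayed within 1.5 times its value under every alternative for days 14 and 21 against day 0 (3 to 4 when a library was left out). With no fold change threshold it was 6 at day 14 and 5 at day 21. The count over all genes then went from 4040 to 5786 at day 14 and from 3924 to 5205 at day 21. At day 7 the number of network genes was 3 with no fold change threshold, Grb10 and Ndn joining Mest, when the count over all genes went from 2818 to 4365, and 1 to 2 when a library was left out. For day 14 against day 7 it was 0 with the mitochondrial share as covariate, when the count over all genes went from 1048 to 218, and 1 to 2 when a library was left out; for day 21 against day 14 it was 0 throughout. Among further imprinted genes, the count at day 7 was 1 with the covariate, 5 within libraries of lower share and 5 to 10 with a library left out, and at day 14 it was 7 within libraries of higher share. The counts over all genes were then 1269, 2139 and 2053 to 2865 at day 7, and 2990 at day 14. The cause was not tested.

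Directions that turned belonged to values near 0. From day 14 to day 21 the log2 change of Grb10 was 0.02 with total count scaling, 0.01 at a mean of 1 CPM, 0.03 with limma voom, and 0 with the covariate and in the 2 days alone, and -0.11 to 0.18 when a library was left out. With a library left out it ranged from -0.12 to 0.4 for Mest, from -0.43 to 0.11 for Plagl1 and from -0.08 to 0.1 for Sgce. For Ndn at day 21 it ranged from -0.24 to 0.03.

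The labels give no meaning to the replicate numbers, and not every same-numbered pair correlated, so the libraries were not treated as paired. Residuals of the 21 same-numbered pairs correlated at -0.244 to 0.397, 8 of them over 0.1, against -0.326 to 0.258 for the 63 other pairs, and 9 of 15 libraries were closest to their own number, a hint from the data and not from the design. With the replicate block the network counts were 1, 4 and 3 at days 7, 14 and 21. The counts over all genes were 2915, 4113 and 3752 with the block, against 2818, 4040 and 3924 without it. Plagl1 at day 21 was then -0.58 (adjusted p = 0.0381), under the fold threshold. Depth limits what can be said of Dlk1, at 0 to 10 counts per library.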
